A study of Carya illinoinensis with 18 samples.

Results

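The comparison described here is between the leaves of pecan seedlings after 15 d without water and the leaves of seedlings at 0 d, before water was withheld. Grafted seedlings of the cultivar Pawnee, a pecan scion budded on seedling rootstocks, were kept well watered and then left dry in a growth chamber. Each of the 3 leaf libraries of a day came from at least 3 plants. The libraries of 0 d are labelled untreated, those of 15 d are labelled as treated with drought for 15 days, and no library of watered seedlings from 15 d was analysed here, so drought and time in the chamber cannot be told apart. All 6 libraries were of leaf tissue of one cultivar, prepared as poly(A)-enriched cDNA. The unit is FPKM, which divides the fragments of a gene by its length and by all fragments mapped in the library. The genes compared are those with a mean of at least 0.1 FPKM over these 6 libraries, 24192 of the 31074 genes in the table. Just inside this limit lay 18 genes at a mean of 0.1 FPKM, and just outside it 25 genes at 0.0983 FPKM, while 4765 of the 6882 genes left out were listed at 0 in all 6 libraries.

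A leaf that loses water closes its stomata and takes up less carbon dioxide, and the hormone abscisic acid rises and switches on genes whose proteins protect membranes, proteins and the water balance of the cell. In a watered leaf, a small set of nuclear transcripts for photosynthesis, such as those of the small subunit of Rubisco and of the chlorophyll-binding proteins, is known to take a large part of the messenger RNA. The table of this study gives only identifiers, of which 31072 begin with CIL, and 0 of them were found in the RefSeq gene table of pecan. No transcript below is therefore named or given a function or a chromosome, and the leaf label could not be checked against marker genes. The description rests on how many genes moved, how far, from which level, and which positions in the order of abundance they took.

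The libraries of each day resembled each other far more than those of the other day. On log2(FPKM + 1), the correlation over the 24192 genes ranged from 0.946 to 0.988 among the 3 libraries of 0 d, from 0.980 to 0.992 among the 3 libraries of 15 d, and from 0.595 to 0.729 over the 9 pairs of a 0 d with a 15 d library. The median SD of a gene between libraries was 0.18 at 0 d and 0.17 at 15 d, against a median difference of 0.76 in size between the days. Read numbers are lost in FPKM, but the steps between low values place the shallowest of the 6 libraries, 0 d replicate 2, at 0.738 of the depth of the deepest, 0 d replicate 1. Among the libraries of the other days, which enter the fit below only through the spread, those of 9 d and of 12 d fell apart. For 9 d replicate 1 and 12 d replicates 1 and 3 the correlation with the mean of 15 d was between 0.932 and 0.967, and that with the mean of 0 d between 0.724 and 0.779. By contrast, 9 d replicates 2 and 3 and 12 d replicate 2 correlated at 0.880 to 0.919 with 0 d and at 0.798 to 0.842 with 15 d. Whether libraries of these days carry exchanged labels, or plants of one day had dried to different degrees, was not tested, and the values of 9 d and 12 d below are those of the libraries so labelled.

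Most genes measured differed between 15 d and 0 d. Limma, fitted on log2(FPKM + 1) of all 18 libraries with one mean per day, called 5511 genes as higher and 8381 as lower at 15 d, at an adjusted p under 0.05 after Benjamini-Hochberg adjustment over the 24192 genes. These are 22.8% and 34.6% of the genes tested, 57.4% in all, and 10300 genes were not called. In 6923 genes (28.6%) every 15 d library lay above every 0 d library, and in 10602 (43.8%) every one lay below. Of the genes called higher, 5456 had such groups without overlap, and of those called lower, 8313. A further 1467 higher and 2289 lower genes were separated in the 6 libraries but were not called in this fit, which takes its spread from all days. Separation of 3 from 3 libraries has an exact two-sided permutation p of 0.1, so some genes separate without a difference. With only the 6 libraries of 0 d and 15 d in the fit, 16055 genes (66.4%) were called. In these leaves a lower level per gene cannot be told apart from fewer cells of a type, because bulk RNA was sequenced.

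The excess of falls over rises depended on how libraries were scaled. As deposited, the values gave a median log2 fold change of -0.26 over the genes tested, and each 15 d library alone gave a median between -0.33 and -0.17 against the mean of 0 d. After median-ratio scaling, which sets the libraries equal at their typical gene, the median was -0.03 and the calls were 7330 higher (30.3%) and 7043 lower (29.1%). Quantile normalization gave 6977 higher and 6747 lower. The share of calls that were higher was thus 39.7% for the values as deposited, 51.0% with the median-ratio factors and 50.8% with equal quantiles.

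**Figure D1:**
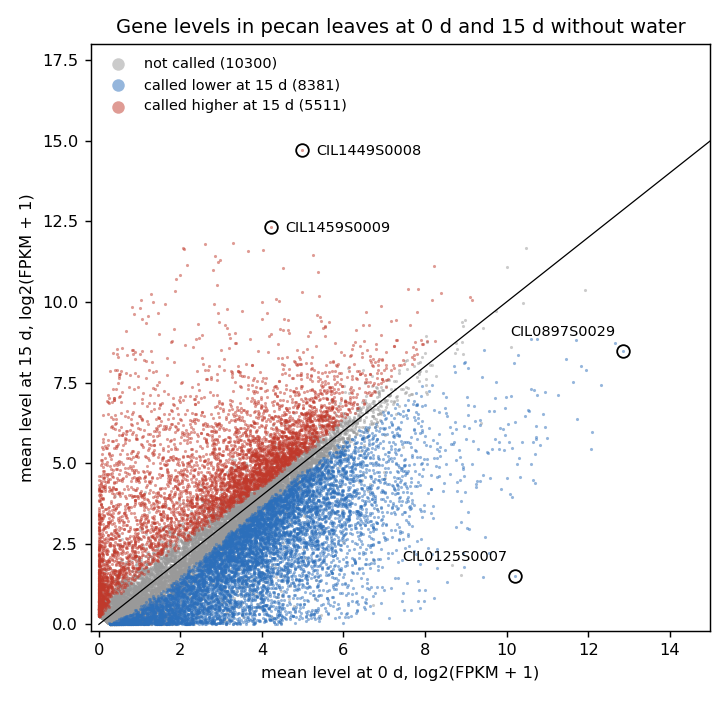
Mean level of each of the 24192 genes at 0 d (x axis) and at 15 d (y axis), both as log2(FPKM + 1), with genes called higher in red (5511), lower in blue (8381) and not called in grey (10300). The line marks equal levels, and the 4 circled genes are those described by identifier in the text, of which CIL1449S0008 lies highest at 15 d.

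In the values as deposited falls were more numerous, whereas the largest changes were rises. With a change of at least 2-fold on the log2(FPKM + 1) scale, 3411 genes were called higher (14.1% of those tested) and 5742 lower (23.7%). At 4-fold or more there were 1622 rises and 2616 falls, and at 8-fold or more 869 rises and 1073 falls. The order then turned, with 468 rises and 407 falls at 16-fold or more, 229 and 116 at 32-fold or more, and 116 and 33 at 64-fold or more. After median-ratio scaling the counts were closer, with 4540 rises and 4796 falls at 2-fold or more and 2060 and 2196 at 4-fold or more. Rises then already led at 8-fold, with 1080 against 879, and at 64-fold they numbered 143 against 23. The percentiles 5 and 95 of the fold changes lay at -2.88 and 2.46 on the log2 scale, and the percentiles 1 and 99 at -4.46 and 4.94. Counted on FPKM without a pseudocount, and with at least 1 FPKM on the higher day, 1140 called genes rose at least 10-fold and 1826 fell at least 10-fold, while 258 rose and 224 fell at least 100-fold. These counts leave out genes listed at 0 on one day.

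**Figure D2:**
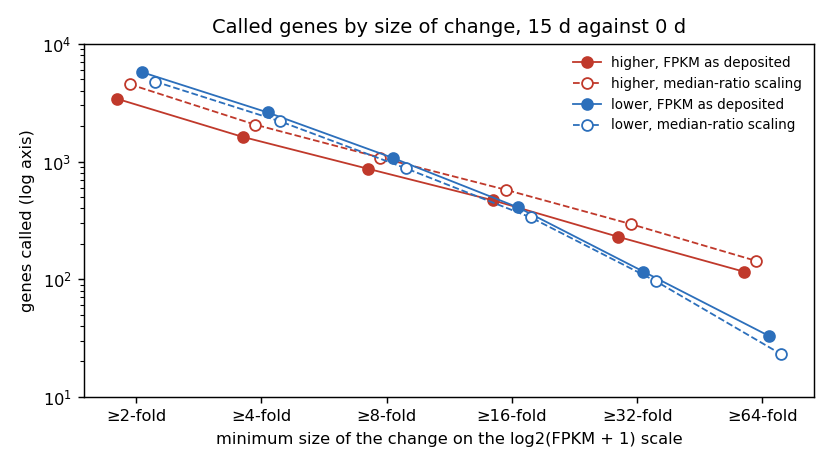
Number of genes called higher (red) or lower (blue) at 15 d by the minimum size of the change (x axis), with counts on a log axis, for FPKM as deposited (filled points, solid lines) and after median-ratio scaling (open points, dashed lines). Falls outnumber rises at 2-fold with FPKM as deposited (5742 against 3411), and rises outnumber falls at 64-fold (116 against 33).

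Genes moved between classes of level over several orders of magnitude. At 0 d 54 genes had a mean of at least 1000 FPKM, and at 15 d 38 genes did, with 3 genes in both sets. Of the 54, 21 were at 100 to 1000 FPKM at 15 d, 29 at 10 to 100 and 1 at 1 to 10. Of the 38, 7 had been at 100 to 1000 FPKM at 0 d, 12 at 10 to 100 and 16 at 1 to 10. In all, 192 genes rose from a mean under 10 FPKM to 100 or more, and 124 fell from 100 or more to under 10. At the low end, 6288 genes had a mean under 1 FPKM at 15 d against 4861 at 0 d, and 2399 genes went from 1 to 10 FPKM at 0 d to under 1.

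Fewer genes reached 1 FPKM in the dry leaves. The number was 19198, 19349 and 18907 in the libraries of 0 d and 17424, 17568 and 18365 in those of 15 d. All 15 d libraries thus lay below all 0 d libraries, and the mean fell by 1366 genes (exact permutation test, two-sided, p = 0.1, the smallest that 3 against 3 allows). It fell by 678 genes after median-ratio scaling (exact permutation p = 0.1), and the number of genes at 0.1 FPKM or more fell by 321 (exact permutation p = 0.2). A set of 111 genes was listed at 0 in all 0 d libraries and reached at least 1 FPKM in all 15 d libraries, with means at 15 d from 1.19 to 23.4 FPKM and a median of 3.07. The other days were not used to choose these genes. Of the 111, 24 to 44 were above 0 in the libraries of 3 d and 55 to 68 in those of 6 d. At 9 d 60 to 93 were, and at 12 d 60 to 111. Choosing without 0 d replicate 1, 2 or 3 gave 138, 147 and 169 genes, the added ones being above 0 in the omitted library. Some of these genes are thus above 0 in any library outside the choice, and the counts at 3 d do not by themselves show a rise by 3 d. The opposite set, at least 1 FPKM in all 0 d libraries and listed at 0 in all of 15 d, held 44 genes with means at 0 d from 1.29 to 12.9 FPKM. In 9 d replicate 1, 12 d replicate 1 and 12 d replicate 3, 10, 17 and 14 of these 44 genes were above 0, against 25 to 42 in the other libraries between 3 d and 12 d. Both counts ask for a condition in every library of the 2 days, so leaving a library out can only keep or raise them. Without 0 d replicate 3 they were 169 and 86. The second was 72 without 15 d replicate 2 and 114 without 15 d replicate 3.

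Genes with a high mean over the days compared showed larger changes than the rest, in part because of how they were ranked. Of the 1000 genes with the highest mean over the 6 libraries, 453 were called higher and 377 lower, against 57.4% called either way over all genes, and the median size of their log2 fold change was 2.37 against 0.76 over all genes. Of the 100 most abundant, 36 were called higher and 54 lower, with a median size of 4.64. A gene that is very high on one day only has a high mean for that reason, so the ranking was repeated on the 12 libraries of 3 d to 12 d. These enter the fit only through the spread, but the new ranking does not remove the effect. The 3 d libraries correlated at 0.911 to 0.959 with 0 d, and 9 d replicate 1 and 12 d replicates 1 and 3 at 0.932 to 0.967 with 15 d. The repeated ranking gave 343 higher and 414 lower of 1000, with a median size of 1.65, and 22 higher and 62 lower of 100, with a median size of 3.92. The classes of level below use the mean of the 6 libraries, so the same effect enters them. By class of level, 13.4% of the 4483 genes with a mean of 0.1 to 1 FPKM were called higher and 14.2% lower, and 15.4% and 41.4% of the 9325 genes at 1 to 10 FPKM. The shares were 32.3% and 37.4% of the 9570 genes at 10 to 100 FPKM, 46.4% and 37.4% of the 778 genes at 100 to 1000, and 44.4% each way of the 36 genes at 1000 or more. After median-ratio scaling more genes were called higher than lower in the classes of 0.1 to 1 FPKM (785 against 637) and of 10 to 100 FPKM (4080 against 2842), while the class of 1 to 10 FPKM stayed mostly lower (2048 against 3286). The pseudocount of 1 shrinks the changes of the lowest class.

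**Figure D3:**
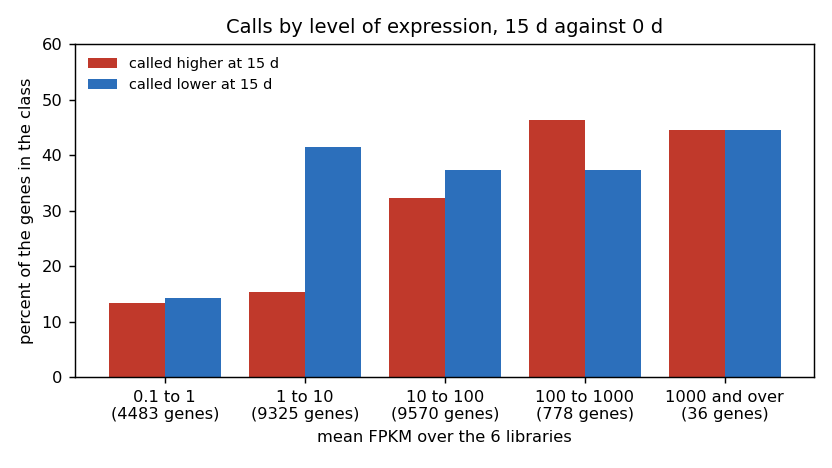
Percent of genes called higher (red) or lower (blue) at 15 d in classes of mean FPKM over the 6 libraries (x axis, with the number of genes in each class). In the class of 1 to 10 FPKM 15.4% were called higher and 41.4% lower, and in the class of 100 to 1000 FPKM 46.4% and 37.4%.

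The most abundant transcripts were exchanged almost completely. Lists of the 10 highest genes shared 9 genes between any 2 libraries of 0 d and 9 between any 2 of 15 d, and 0 genes in each of the 9 pairs of a 0 d with a 15 d library. For lists of 100 genes, 81 to 92 were shared within 0 d, 87 to 94 within 15 d, and 7 to 15 between the days. For lists of 1000 genes, 825 to 932 were shared within 0 d, 891 to 938 within 15 d, and 276 to 348 between the days. The 100 genes with the highest mean at 0 d had a median of 1065 FPKM there and 71.0 FPKM at 15 d, where their median position was 1354.5. The 100 genes with the highest mean at 15 d had a median of 806 FPKM there and 19.8 FPKM at 0 d, where their median position was 5996.

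The share of all FPKM held by these lists traces the exchange through the days. The 100 genes highest at 0 d took 26.3%, 25.3% and 23.5% of the summed FPKM of the 0 d libraries and 3.47%, 3.48% and 4.30% in those of 15 d. The 100 genes highest at 15 d took 2.64%, 2.54% and 3.00% at 0 d and 27.5%, 24.8% and 24.0% at 15 d. These shares follow from how the lists were chosen and are given without a test. The libraries between 3 d and 12 d did not enter the choice. In them, the share of the 0 d list was 16.8% to 21.3% at 3 d and 11.9% to 16.0% at 6 d. At 9 d it was 5.37% in replicate 1 but 14.4% and 12.8% in replicates 2 and 3, and at 12 d 6.02% and 6.13% in replicates 1 and 3 but 15.5% in replicate 2. The 15 d list took 2.74% to 2.83% at 3 d, 4.08% to 5.52% at 6 d, 14.8% in 9 d replicate 1 and 12.9% and 19.5% in 12 d replicates 1 and 3. It stayed at 5.20% and 6.00% in the other libraries of 9 d and 4.48% in 12 d replicate 2. The same 3 libraries of 9 d and 12 d as above thus carried the abundant transcripts of 15 d, and no library between 3 d and 12 d reached the 24.0% of the lowest 15 d library.

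**Figure D4:**
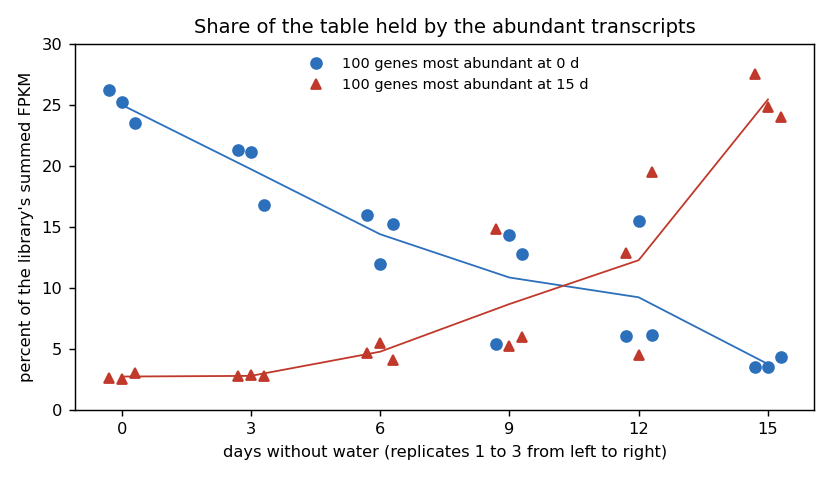
Percent of the summed FPKM of each library (y axis) held by the 100 genes most abundant at 0 d (blue circles) and by the 100 most abundant at 15 d (red triangles), against days without water, with lines through the mean of 3 libraries. At 9 d and 12 d the 3 libraries of a day fall apart, with the 15 d list at 14.8%, 5.20% and 6.00% in replicates 1 to 3 of 9 d and at 12.9%, 4.48% and 19.5% in those of 12 d.

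The 10 highest genes of 15 d took a larger share of the FPKM than those of 0 d, but only through the most abundant gene. Longer lists of the 2 days overlapped in their shares. The 10 genes with the highest mean of their own day took 7.37% to 8.62% of the FPKM in the 0 d libraries and 9.74% to 11.3% in those of 15 d, without overlap. The highest gene alone took 5.55%, 4.31% and 4.49% in the 15 d libraries, against 1.49%, 1.34% and 1.13% in those of 0 d. The 15 d list without its highest gene took less than the full 0 d list, which is then longer by a gene. For the 100 highest of each day the shares were 23.5% to 26.3% and 24.0% to 27.5%, and for the 1000 highest 48.4% to 51.1% and 50.5% to 55.1%. Each list was chosen on the libraries in which its share is given, so these are descriptions with no test. A list ranked on the mean of all 6 libraries mixes the genes of both days, and its share does not measure how uneven either day was. The effective number of genes, the count of equally abundant genes that would give the same Shannon entropy, was 4607, 4845 and 5108 at 0 d and 3476, 4025 and 4388 at 15 d (exact permutation p = 0.1). Without the most abundant gene, CIL1449S0008, the effective number was 48.1 higher at 15 d than at 0 d (exact permutation p = 0.9).

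CIL1449S0008 also had the largest log2 fold change of the genes called. It had 4.40, 46.5 and 41.0 FPKM in the 0 d libraries and 31425, 24218 and 25113 FPKM in those of 15 d. It took 4.31% to 5.55% of the summed FPKM of the 15 d libraries and moved from position 3800 at 0 d to position 1. The 15 d libraries lay far above those of 0 d, and among the latter replicate 1 was the lowest. Limma put the change at 10.24 in log2 units (SE 1.48, adjusted p = 6.17e-05). The ratio of the mean FPKM of the days, a different measure, was 878-fold. By that ratio the genes at ranks 17 and 19 by mean FPKM over the 6 libraries rose more, 1040-fold and 982-fold. Without 0 d replicate 1 the log2 fold change was 9.22, and it was 8.24 after quantile normalization and 10.6 after median-ratio scaling. Between these days its level was 43.4 to 63.9 FPKM at 3 d and 104 to 241 FPKM at 6 d. It was 1502 in 9 d replicate 1 against 145 and 186 in the other libraries of that day, and 2147, 57.0 and 15580 in replicates 1 to 3 of 12 d.

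CIL1459S0009 had the next largest gain in FPKM. Its level was 8.96, 24.2 and 19.5 FPKM at 0 d and 5565, 4858 and 4944 FPKM at 15 d, a change that limma put at 8.21 in log2 units (SE 1.24, adjusted p = 8.05e-05). It differed from CIL1449S0008 in its course. In 9 d replicate 1 it had 8764 FPKM and in 12 d replicate 3 6915 FPKM, both above every 15 d library, against 280 and 555 FPKM in the other libraries of 9 d.

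Among the falling genes, CIL0897S0029 lost the most FPKM. It was the most abundant gene at 0 d, with 8738, 7824 and 5564 FPKM, and had 337, 322 and 414 FPKM at 15 d, where its position was 149. Limma put the change at -4.35 in log2 units (SE 0.78, adjusted p = 3.11e-04), 20.6-fold between the means. CIL0125S0007 had the most negative log2 fold change, -8.43 (SE 1.73, limma, adjusted p = 8.61e-04), with 1505, 1662 and 356 FPKM at 0 d and 1.24, 1.65 and 2.64 FPKM at 15 d. Its fall was not a steady one over the days. It had 1034 FPKM in 3 d replicate 1 but 16.2 and 15.6 in the other libraries of 3 d, 374 in 6 d replicate 1, and 325 in 9 d replicate 2 against 3.64 and 11.7 in replicates 1 and 3. Its large spread over the days is part of its standard error.

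The 20 genes with the highest mean over the 6 libraries include genes that were high on one day only, since both days enter the ranking. In all 20 the libraries of 0 d and 15 d did not overlap, with 9 genes higher and 11 lower at 15 d, against 28.6% and 43.8% of all genes. Limma called 7 of them as higher and 10 as lower in the fit over all days, against 57.4% of all genes either way, and all 20 when only the 6 libraries of 0 d and 15 d were fitted, against 66.4%. Of the 20 highest genes ranked on the libraries of 3 d to 12 d, 3 were called higher and 13 lower. The 7 called rises were between 7.67 and 10.24 on the log2 scale and the 10 called falls between -6.71 and -2.92.

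The 11 falling genes of this set held positions 1 to 11 at 0 d. The gene at rank 3 had 7492, 5568 and 6495 FPKM at 0 d and 182, 348 and 748 FPKM at 15 d, or -4.16 in log2 units (limma, adjusted p = 6.75e-04). Rank 4 had 6110, 5293 and 3803 FPKM at 0 d and 164, 141 and 210 FPKM at 15 d. Its identifier is the direct neighbour of that of CIL0897S0029, with which it shares the same stem. The deepest falls of the set were those of the genes at ranks 9 and 8. Rank 9 fell from 5178, 4379 and 3419 FPKM to 27.3, 33.8 and 67.4 FPKM, or -6.71 in log2 units (limma, adjusted p = 1.35e-04). Rank 8 fell from 4254, 5172 and 3624 FPKM to 50.1, 51.8 and 84.0 FPKM, or -6.14 in log2 units (limma, adjusted p = 2.58e-05). In these as in all 11 falling genes 15 d replicate 3 was the highest library of its day. This library was nearer to 0 d as a whole. The genes called at least 2-fold lower took 9.59% of its FPKM, against 6.48% and 6.92% in 15 d replicates 1 and 2. The genes at ranks 10 to 12 and 15 to 16 fell likewise, from means of 3191 to 3939 FPKM at 0 d to means of 82.2 to 447 FPKM at 15 d.

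Of the 9 rising genes, 8 held positions 1 to 8 at 15 d. The genes past rank 10 described in the next sentences were chosen after their values were seen. The gene at rank 17 had 0.28, 5.11 and 4.07 FPKM at 0 d and 3559, 3247 and 3032 FPKM at 15 d, and moved from position 15874 to position 5 (9.91 in log2 units, limma, adjusted p = 3.88e-05). Rank 14 had 0.20, 8.49 and 6.54 FPKM at 0 d and 3454, 3527 and 3610 FPKM at 15 d (9.64 in log2 units, limma, adjusted p = 1.64e-04). Rank 19, whose identifier shares its stem with that of CIL1449S0008, had 0.61, 5.24 and 3.92 FPKM at 0 d and 3370, 2926 and 3296 FPKM at 15 d (9.76 in log2 units, limma, adjusted p = 3.18e-05). In these 3 genes 0 d replicate 1 was several times below the other libraries of 0 d. A tighter start was that of rank 20, with 8.08, 16.6 and 21.4 FPKM at 0 d and 3254, 3153 and 2928 FPKM at 15 d (7.67 in log2 units, limma, adjusted p = 1.00e-05).

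Only 3 of the 20 were not called over all days, and their changes were small beside those of the others. After median-ratio scaling ranks 7 and 18 were called as well (adjusted p = 0.0472 and 0.0231 from limma), while rank 5 was not (0.128). The gene at rank 7 had 1446, 1421 and 1428 FPKM at 0 d and 3224, 3277 and 3336 FPKM at 15 d, 2.29-fold higher (1.19 in log2 units, limma, adjusted p = 0.104, and 0.00631 with only the 6 libraries in the fit). Rank 18 was 2.09-fold higher, with 1038 ± 70.9 FPKM at 0 d and 2168 ± 56.5 FPKM at 15 d (SD, n = 3, adjusted p = 0.0567 from limma and 0.00530 with 6 libraries). The gene at rank 5 had 3896 ± 833 FPKM at 0 d and 1333 ± 149 FPKM at 15 d (SD, n = 3, -1.53 in log2 units, limma, adjusted p = 0.0582 and 0.00420 with 6 libraries).

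**Figure D5:**
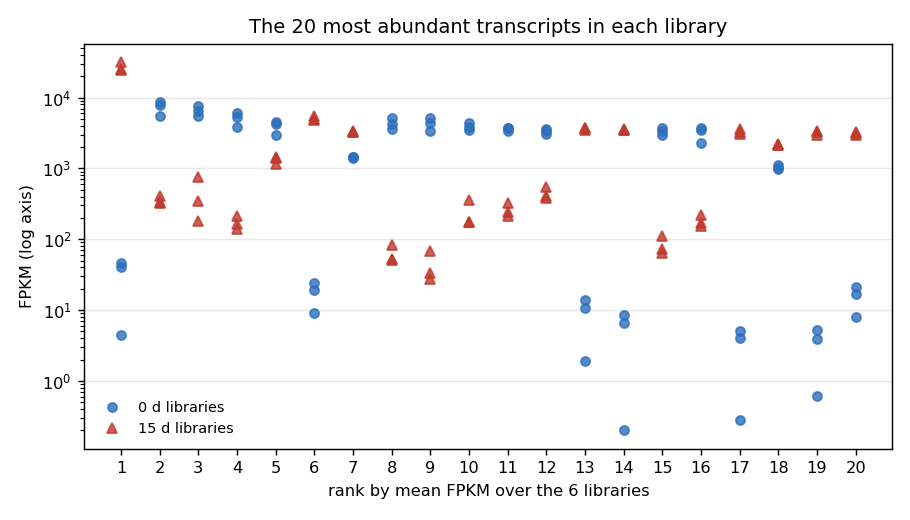
FPKM (y axis, log scale) of the 20 genes with the highest mean over the 6 libraries (x axis, by rank) in the 3 libraries of 0 d (blue circles) and the 3 of 15 d (red triangles). In all 20 genes the days do not overlap, 9 being higher and 11 lower at 15 d, and rank 1 reaches 31425 FPKM.

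Low starting levels differed between the 0 d libraries in a way that touches these folds. Of the 38 genes at 1000 FPKM or more at 15 d, 28 were called higher and had a mean under 100 FPKM at 0 d. Their level at 0 d, as a percentage of their 15 d mean, had a median of 0.0820% in replicate 1, 0.353% in replicate 2 and 0.322% in replicate 3, and 0 d replicate 1 was the lowest of the day in 23 of the 28 genes. The lowest value of a gene was 0.00567% in replicate 1 but 0.137% and 0.123% in replicates 2 and 3. The folds of these genes therefore depend on which 0 d libraries enter, whereas their 15 d levels lay between 76.6% and 129% of the 15 d mean. Whether a small share of reads or RNA from dry leaves stands in the 0 d libraries, replicates 2 and 3 above all, was not tested, so the 0 d levels of these genes and their folds, the 878-fold of CIL1449S0008 included, may not be those of watered leaves. In the libraries of 3 d and 6 d the lowest value of a gene was 0.0984% to 0.192%, closer to 0 d replicates 2 and 3 than to replicate 1. The median was 0.605%, 0.435% and 0.602% in replicates 1 to 3 of 3 d, and 2.24%, 3.63% and 2.25% at 6 d. At 12 d the median was 25.7%, 1.98% and 63.5% in replicates 1 to 3, and at 9 d 31.8%, 5.21% and 6.06%.

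The genes called were also followed by the difference of 12 d from 6 d. The libraries of these days do not enter the fitted difference of 15 d from 0 d, but they enter the spread by which those genes were called. Of the 3411 genes called at least 2-fold higher at 15 d, 2899 had a higher fitted level at 12 d than at 6 d, with a median log2 difference of 0.47. Of the 5742 called at least 2-fold lower, 5397 had a lower fitted level at 12 d, with a median of -0.60. Over all 24192 genes, 8740 were higher and 15351 lower at 12 d, with a median of -0.14. The 12 d libraries differed among themselves, with correlations of 0.861 to 0.960, and few of these differences passed the test. Limma called 5 of the 3411 as higher and 1 of the 5742 as lower, against 6 higher (0.0248%) and 3 lower (0.0124%) of all genes, while 1087 and 1546 had an unadjusted p under 0.05. It called 0 of the 3411 as lower (28 at an unadjusted p under 0.05) and 0 of the 5742 as higher (31). Without 12 d replicate 2, it called 1217 of the 3411 as higher (35.7%, against 5.75% of all genes) and 1518 of the 5742 as lower (26.4%, against 7.40%). The 12 d libraries then left were those that resembled 15 d, with correlations of 0.938 and 0.967, so these counts are not a separate check of the calls. The same libraries enter the 12 d mean behind the 2899 and 5397 genes above, so those counts are not a separate check either. Without 9 d replicate 1, which enters only through the spread, the counts were 162 and 216, and without any other single library they were 1 to 11 and 0 to 13.

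Most called genes were not followed by a gene called alike, but the share that was lay above that over all genes. Identifiers consist of a stem and a running number, and the next gene is that with the same stem and the number one higher. Of 2332 genes called at least 2-fold higher with a next gene among those tested, the next gene was also called at least 2-fold higher in 532, or 22.8%, against 14.1% of all genes and 12.2% after genes not so called. For genes called at least 2-fold lower, the next gene was likewise lower in 1127 of 3824, or 29.5%, against 23.7% of all genes and 22.1% after genes not so called. RSEM divides reads that near-identical genes share, so a change of one copy can appear in its neighbour, and the part of such copies in these shares was not tested.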

How the data were processed

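Leaf RNA of pecan seedlings was sequenced by the authors on an Illumina NovaSeq, and levels were computed with RSEM and deposited as FPKM, with 2 decimals, for each gene of each library. The submitters' processing notes also name fastp 0.18.0, Bowtie2 2.2.8, HISAT2 and StringTie 1.3.1. Genome build and annotation are not given in the sources used here. Reads matching more than one gene are shared out by RSEM. Columns were mapped to libraries by name.

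FPKM was transformed as log2(FPKM + 1), which understates changes of low genes, and fitted with limma 3.58.1 in R 4.3.3 over all 18 libraries with one mean per day, trended eBayes and Benjamini-Hochberg adjustment over the 24192 genes. The script was tested on simulated data. Single values per library were compared by exact two-sided permutation tests. Relative depth was taken from 2966 genes above 0 in 2 to 10 libraries, and all 15 pairs of the 6 libraries lay within 0.05 (log2) of the fitted depths. Alternatives were median-ratio scaling (19993 genes), quantile normalization, a pseudocount of 0.1, other filters, 6 libraries, a replicate block, array weights and leaving out libraries. The libraries of a day are stated to be biological repetitions. Genes given by identifier were the called genes without overlap between days that had the largest and the most negative log2 fold change and the largest gain and loss of mean FPKM, taking the next by FPKM where one gene met both. Other abundant genes are given by rank. Members and lists were chosen with earlier results of these data known. Python 3.11.15 with pandas 2.3.3, scipy 1.17.1 and matplotlib 3.10.9 was used.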

Additional observations from a re-analysis of the deposited data

How the results depend on the processing

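The counts called higher, lower, 2-fold higher and 2-fold lower stayed within 1.5 times their values under every alternative, array weights included (7476 higher and 11747 lower). With each library left out in turn they were 4798 to 5658 and 6795 to 8836. The median log2 fold change, -0.26 as deposited, was -0.0335 after median-ratio scaling, -0.00652 after quantile normalization, -0.38 with a pseudocount of 0.1 and -0.17 without the filter. No pairing of libraries by replicate number was seen. Same-numbered deviations correlated at -0.054 to -0.024 and others at -0.097 to 0.109, which with 3 libraries a day cannot settle whether libraries were paired. With the number as a replicate block 5457 genes were called higher and 8290 lower, and 2 of the 2-fold higher genes were called higher at 12 d. For 12 d against 6 d, the counts of 5 and 1 were 9 and 5 after quantile normalization and 568 and 512 with array weights, and the second was 0 after median-ratio scaling. With a library left out they were 1 to 1217 and 0 to 1518. The shares of FPKM in lists ranked on all 6 libraries, which mix the genes of both days, differed by 0.40, -0.84 and 3.45 percentage points for the 10, 100 and 1000 highest genes (exact permutation p = 0.6, 0.4 and 0.1) and depended on the ranking. The 10 highest differed by -7.26 percentage points ranked by 0 d, -3.93 ranked by 3 d to 12 d and -4.85 without the most abundant gene. The 100 highest differed by 22.7 points ranked by 15 d, and the 1000 highest by -31.8 ranked by 0 d and -2.42 ranked by 3 d to 12 d. The effective number of genes was 48.1 higher without the most abundant gene. Genes absent at 0 d numbered 57 at a limit of 2 FPKM, 177 when up to 0.1 FPKM counted as absent, and 117 to 169 with a library left out. Those absent at 15 d numbered 82 at 0.5 FPKM, 22 at 2 FPKM, 147 with up to 0.1 FPKM, and 45 to 114 with a library left out. Relative depth limits what a listed 0 can mean, and 3 libraries a day allow no exact p below 0.1.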
